A study of Mus musculus with 7 samples.

Results

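The genes described are 7 chains of the receptors for IL-2, IL-4, IL-7, IL-15 and IL-21: Il2ra, Il2rb, Il2rg, Il7r, Il4ra, Il15ra and Il21r. They were chosen by name, and each of the 7 symbols matched 1 of the 51138 genes in the count table. RNA was sequenced from regulatory T cells (Tregs) sorted from the spleens of RFP-FoxP3+ C57/BL6 mice, in which a red fluorescent protein reports Foxp3. The injected group (FP) holds 4 libraries from mice given 20 ug of an IL-2/CD25 fusion protein, and the control group (PBS) holds 3 libraries from mice given 100 uL of PBS. Both groups carried the reporter and were collected 72 h after the injection. The sources used here do not give the age and sex of the mice, the number of cells sorted or any pooling of animals. The labels do not say that each replicate came from a separate mouse, so p values measure only the spread between these samples, which may be technical.

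The common gamma chain (Il2rg, CD132) is shared by the receptors for IL-2, IL-4, IL-7, IL-9, IL-15 and IL-21, and each cytokine adds a chain of its own. In the IL-2 receptor, the beta chain (Il2rb, CD122) and the gamma chain carry the signal through JAK1 and JAK3 to STAT5, while the alpha chain (Il2ra, CD25) raises the affinity for IL-2. Tregs are known for abundant CD25 and scarce IL-7 receptor (CD127), and they depend on IL-2 for their survival.

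Promoter sequences of 6 of the 7 genes were matched by symbol in a RefSeq table (build GRCm38.p6, 250 bases before to 50 bases after each start of transcription). Both strands were searched for TTCNNNGAA (a STAT motif), GTAAACA (a forkhead motif), GGGAATCCC (a kappaB motif) and AGGAAGT (an ETS motif). None of the matches overlapped another. The promoters of Il2ra, Il7r and Il21r are shown because they held a match, and because their genes were higher, lower and not called after FP. Capitals mark the matches, and each sequence is read 5′ to 3′ on the strand of its gene. The windows are chr2:11642542-11642841 on the plus strand for Il2ra, chr15:9529827-9530126 on the minus strand for Il7r and chr7:125603179-125603478 on the plus strand for Il21r.
Il2ra: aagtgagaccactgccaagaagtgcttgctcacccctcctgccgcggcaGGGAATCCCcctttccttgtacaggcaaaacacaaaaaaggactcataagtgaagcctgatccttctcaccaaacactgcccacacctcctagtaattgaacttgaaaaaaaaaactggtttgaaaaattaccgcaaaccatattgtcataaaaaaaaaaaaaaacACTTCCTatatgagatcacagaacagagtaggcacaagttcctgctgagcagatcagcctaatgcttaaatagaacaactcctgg
Il7r: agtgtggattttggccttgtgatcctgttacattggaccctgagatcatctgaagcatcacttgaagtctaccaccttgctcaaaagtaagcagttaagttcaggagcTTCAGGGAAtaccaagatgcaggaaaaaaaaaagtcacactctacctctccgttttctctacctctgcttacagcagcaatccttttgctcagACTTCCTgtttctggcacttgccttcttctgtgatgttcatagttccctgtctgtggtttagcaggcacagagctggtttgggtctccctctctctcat
Il21r: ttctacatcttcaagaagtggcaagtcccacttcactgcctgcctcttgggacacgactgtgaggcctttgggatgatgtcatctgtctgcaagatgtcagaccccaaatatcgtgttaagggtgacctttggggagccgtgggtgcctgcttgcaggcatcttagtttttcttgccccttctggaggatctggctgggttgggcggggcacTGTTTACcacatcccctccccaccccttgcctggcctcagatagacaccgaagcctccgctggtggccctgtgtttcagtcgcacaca
The Il2ra promoter held GGGAATCCC, from 201 to 193 bases before the start, and ACTTCCT, the reverse strand of AGGAAGT, from 35 to 29 bases before it. The Il7r promoter held the STAT match TTCAGGGAA from 142 to 134 bases before the start and ACTTCCT from 49 to 43 bases before it. The Il21r promoter held TGTTTAC, the reverse strand of GTAAACA, from 38 to 32 bases before the start. No match lay in the windows of Il2rg, Il4ra or Il15ra. Of 32851 promoters in the table, 0.353% held GGGAATCCC, 9.35% held AGGAAGT, 8.3% held TTCNNNGAA and 3.65% held GTAAACA. These matches describe the letters in the windows and are not evidence of binding.

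Total counts ran from 11111554 to 13429878 in the FP libraries and from 9956509 to 12208512 in the PBS libraries. Levels are given as CPM, counts scaled to a common library size, on library sizes scaled by trimmed mean of M values (TMM), and 3 counts, the most that a count of 0 allows, come to 0.223 to 0.301 unscaled CPM. The Treg factor Foxp3 measured 540 ± 52.9 CPM in FP and 491 ± 7.24 CPM in PBS libraries (SD, n = 4 and 3). The Treg marker with the highest level, Ikzf2, measured 1601 ± 157 CPM after FP and 1100 ± 88.0 CPM after PBS, and was called higher, but not on library size alone (edgeR adjusted p = 0.128). Of the 8 Treg markers, 4 were higher and 0 were lower, against 21.0% and 18.5% of all genes tested. Fewer were called on library size alone. Their median log2 fold change was 0.33, against -0.05 over all genes tested. Summed CPM of 8 B cell markers ran from 24.0 to 34.0 after FP and from 23.6 to 41.3 after PBS. Summed CPM of 12 macrophage and monocyte markers ran from 22.6 to 119 after FP and from 572 to 1392 after PBS, and all 12 were lower after FP. Of these, Cd14 and Fcgr1 passed the filter on low counts through the PBS libraries alone. The 10 markers that reached its minimum in at least 3 libraries of each group were all lower, against 18.5% of all genes tested. The PBS libraries therefore held more RNA of these markers than the FP libraries, and the part of this in the results was not tested. In bulk samples, fewer cells of a type and less RNA per cell cannot be told apart.

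After FP, 4 of the 7 chains were higher (Il2ra, Il2rb, Il2rg and Il4ra), Il7r was lower, and Il15ra and Il21r did not pass the test. In the edgeR quasi-likelihood test with Benjamini-Hochberg adjustment over 15954 genes, 39.5% of all genes passed the threshold of 0.05, 21.0% higher and 18.5% lower. That is 3355 higher and 2953 lower genes, against 2399 higher and 4823 lower with upper-quartile factors, and 2023 higher and 5046 lower on library size alone. Without PBS library 3, 4088 genes were called in either direction, and the lower genes numbered 1774, while they numbered 1869 without PBS library 2. All 7 chains passed the filter on low counts, and their median log2 fold change was 0.55, against -0.05 over all genes tested. The values of the groups did not overlap for 6 of the 7 chains, against 46.7% of all genes tested. Together the 7 chains took 0.389%, 0.421%, 0.436% and 0.370% of the counts of FP libraries 1 to 4, against 0.236%, 0.232% and 0.219% of those of PBS libraries 1 to 3. The 5 calls among the chains were kept under each of 15 alternative settings, including the removal of each library in turn.

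**Figure D1:**
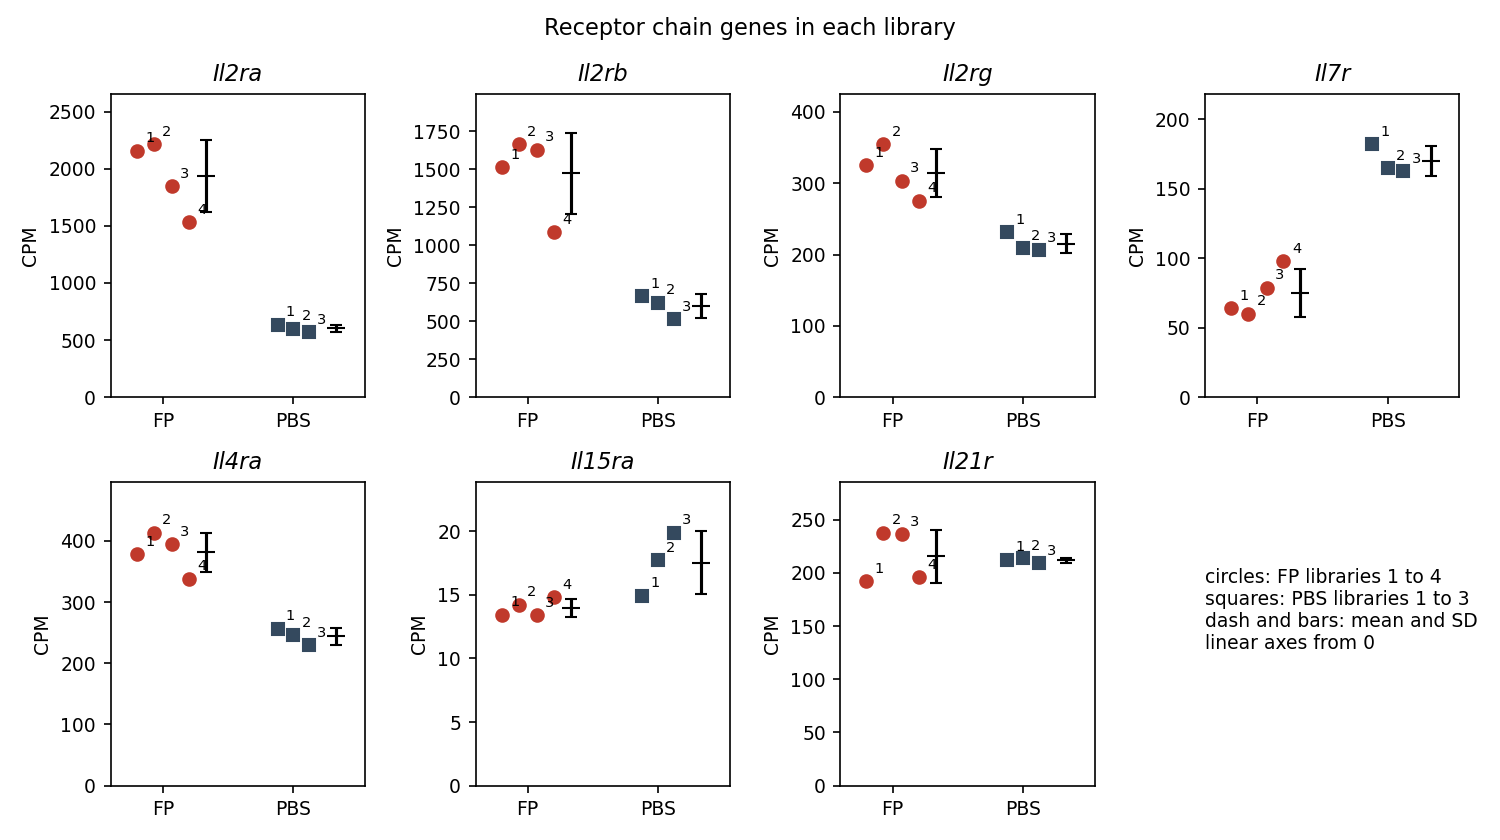
CPM (vertical axis, linear from 0, TMM-scaled) of each receptor chain gene in FP libraries 1 to 4 (circles) and PBS libraries 1 to 3 (squares), with the mean and SD of each group. The groups are apart for Il2ra, Il2rb, Il2rg, Il4ra and Il7r, nearly touch for Il15ra at 14.8 and 14.9 CPM, and overlap for Il21r.

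All 3 chains of the IL-2 receptor rose, the alpha and beta chains more than the gamma chain. Il2ra (ENSMUSG00000026770.5, chr2:11642807-11693193, plus strand of GRCm38) measured 2160, 2216, 1848 and 1530 CPM in FP libraries 1 to 4, against 635, 600 and 570 CPM in PBS libraries 1 to 3. Every FP library lay far above every PBS library, and FP library 4 was the lowest of its group. The means were 1938 ± 317 CPM in FP and 602 ± 32.6 CPM in PBS libraries (SD, n = 4 and 3), a 3.22-fold rise with a log2 fold change of 1.69 (SE 0.14, 95% interval 1.38 to 2.00, edgeR adjusted p = 1.65e-05). A larger rise was found for 3.33% of all genes tested. An unclassified transcript inside an Il2ra intron, Gm37881 (chr2:11683126-11683546, plus strand), shares none of its exonic bases with Il2ra. It measured 34.3 ± 3.22 CPM in FP and 17.8 ± 2.92 CPM in PBS libraries (SD, n = 4 and 3), with a log2 fold change of 0.95 (edgeR adjusted p = 0.000652). Reads of unspliced Il2ra RNA over this stretch cannot be told apart from it.

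Il2rb (ENSMUSG00000068227.8, chr15:78479256-78495271, minus strand), the signalling chain shared by the receptors for IL-2 and IL-15, measured 1513, 1667, 1629 and 1088 CPM in FP libraries 1 to 4, against 667, 622 and 515 CPM in PBS libraries 1 to 3. The groups did not overlap, and the lowest value of each group was in its last library. Il2rb rose 2.45-fold, to 1474 ± 266 CPM in FP libraries, against 602 ± 78.0 CPM in PBS libraries (SD, n = 4 and 3). Its log2 fold change was 1.29 (SE 0.16, 95% interval 0.94 to 1.65, edgeR adjusted p = 0.000209). The next gene, C1qtnf6, 28.1 kb away on the same strand, was also higher, with a log2 fold change of 2.16. The neighbour on the other side, Tmprss6, was not called.

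Il2rg (ENSMUSG00000031304.18, chrX:101264378-101268255, minus strand), the common gamma chain, rose less than its partners. It measured 325, 355, 304 and 276 CPM in FP libraries 1 to 4, against 231, 209 and 206 CPM in PBS libraries 1 to 3. The groups were apart, though FP library 4 was only 1.28 times the PBS mean on this TMM scale. The means were 315 ± 33.5 CPM in FP and 215 ± 13.7 CPM in PBS libraries (SD, n = 4 and 3), a 1.46-fold rise (log2 fold change 0.55, SE 0.10, edgeR adjusted p = 0.00236). With library size alone in place of TMM factors its log2 fold change was 0.27, under a scaling that moved the median of all genes to -0.31. Il2rg shares 728 of its 2387 exonic bases with Gm20489, a gene on the same strand, which received 8 counts in all FP libraries and 2 in all PBS libraries. How reads on shared bases were treated was not given, so the level of Il2rg is less certain than those of the other chains.

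Il7r (ENSMUSG00000003882.4, chr15:9505788-9530176, minus strand), the alpha chain of the IL-7 receptor, was the chain that fell. It measured 64.0, 60.0, 78.8 and 97.9 CPM in FP libraries 1 to 4, against 182, 165 and 162 CPM in PBS libraries 1 to 3. All FP values were below all PBS values, and FP library 4 was the nearest to the PBS group. Il7r fell to 75.2 ± 17.2 CPM in FP libraries, against 170 ± 10.7 CPM in PBS libraries (SD, n = 4 and 3), which is 0.443 of the PBS level (log2 fold change -1.17, SE 0.15, 95% interval -1.51 to -0.83, edgeR adjusted p = 0.000298). A larger fall was found for 6.11% of all genes tested. The neighbours of Il7r, Capsl and Spef2, were not called.

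Il4ra (ENSMUSG00000030748.9, chr7:125552120-125579474, plus strand), the ligand-binding chain for IL-4, measured 378, 413, 395 and 338 CPM in FP libraries 1 to 4, against 256, 246 and 229 CPM in PBS libraries 1 to 3. The FP libraries were again higher throughout. The means were 381 ± 32.1 CPM in FP and 244 ± 13.8 CPM in PBS libraries (SD, n = 4 and 3), a 1.56-fold rise (log2 fold change 0.64, SE 0.10, edgeR adjusted p = 0.000636). Library size alone gave 0.37. Il4ra shares 571 of its 6002 exonic bases with Gm44876, an antisense gene with 92 counts in all FP libraries and 43 in all PBS libraries. Since the strand setting of the counting was not given, reads of these genes cannot be told apart there, but the counts of Gm44876 are few beside those of Il4ra.

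Il15ra (ENSMUSG00000023206.16, chr2:11705290-11734317, plus strand), which binds IL-15 and presents it to cells that carry the beta and gamma chains, had the fewest counts of the 7. It measured 13.4, 14.2, 13.4 and 14.8 CPM in FP libraries 1 to 4, against 14.9, 17.7 and 19.9 CPM in PBS libraries 1 to 3. All FP values were lower than all PBS values, but by a narrow margin. The means were 14.0 ± 0.695 CPM in FP and 17.5 ± 2.48 CPM in PBS libraries (SD, n = 4 and 3), and the log2 fold change of -0.33 (SE 0.14, 95% interval -0.63 to -0.02) did not pass the threshold (edgeR adjusted p = 0.0869). It was called lower with upper-quartile factors (log2 fold change -0.53, edgeR adjusted p = 0.0164) and with library size alone (-0.59, edgeR adjusted p = 0.0170). Its gene lies 12.1 kb from Il2ra on the same strand, so neighbouring receptor genes had unlike fold changes. Il7r and Il15ra were lower after FP in the direction of the macrophage and monocyte markers, whose part was not tested.

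Il21r (ENSMUSG00000030745.9, chr7:125603429-125633570, plus strand), the IL-21 receptor chain, measured 192, 238, 236 and 196 CPM in FP libraries 1 to 4, against 212, 214 and 209 CPM in PBS libraries 1 to 3. The PBS values lay inside the range of the FP values. The means were 216 ± 25.0 CPM in FP and 212 ± 2.50 CPM in PBS libraries (SD, n = 4 and 3). Its log2 fold change was 0.03 (SE 0.10, edgeR adjusted p = 0.855), with a 95% interval of 0.872-fold to 1.19-fold. The sign was negative with upper-quartile factors (-0.18), on plain library size (-0.24), and without FP library 2 or FP library 3 (both -0.02). Il21r lies 24.0 kb from Il4ra on the same strand, again with unlike fold changes. On the far sides of this pair, Nsmce1 and Gtf3c1 were higher, with log2 fold changes of 1.22 and 0.24.

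**Figure D2:**
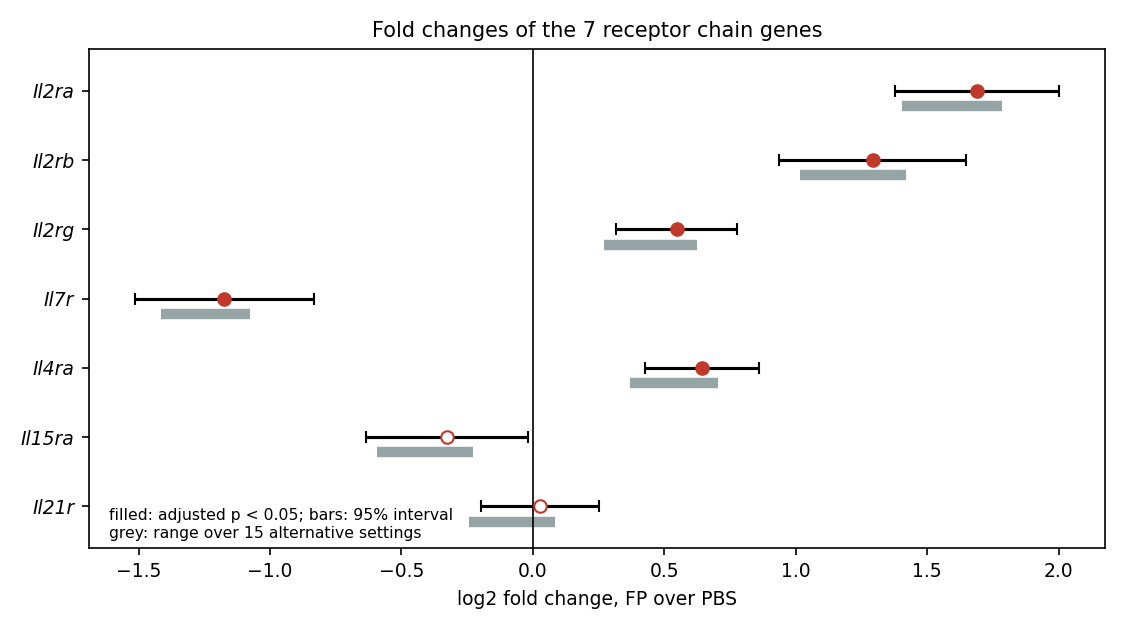
Log2 fold change of each receptor chain gene, FP over PBS (horizontal axis), with its 95% interval, filled where the adjusted p is under 0.05, and the range over 15 alternative settings as a grey bar. Il2ra stands at 1.69 and Il7r at -1.17, and only the grey bar of Il21r crosses 0.

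On TMM-scaled CPM, FP library 4 stood nearest to the PBS group for each of the 5 chains that were called. On unscaled CPM the FP library nearest to the PBS group was again library 4 for Il2ra, Il2rb and Il7r, but it was library 1 for Il2rg (272 CPM, against 288 CPM in FP library 4) and for Il4ra (317 CPM, against 353 CPM in FP library 4). On the TMM scale, the log2 ratio of FP library 4 to the PBS mean was 1.35 for Il2ra, 0.86 for Il2rb, 0.36 for Il2rg, 0.47 for Il4ra and -0.79 for Il7r. From low to high, on both scales, the FP libraries ran 4, 3, 1, 2 for Il2ra and 2, 1, 3, 4 for Il7r, so that the library with more Il2ra had less Il7r. The coefficient of variation among FP libraries was 16.3% for Il2ra, 18.0% for Il2rb and 22.9% for Il7r, against 5.41%, 12.96% and 6.31% among PBS libraries. It was 11.6% for Il21r among FP libraries and 1.18% among PBS libraries. Il15ra went the other way, with 4.98% among FP libraries and 14.2% among PBS libraries. These coefficients are for TMM-scaled CPM, and the spread depended on the scaling. Among FP libraries, Il15ra ran from 13.4 to 14.8 CPM scaled and from 11.2 to 15.5 CPM unscaled. Il7r also ran wider unscaled (50.9 to 102 CPM, against 60.0 to 97.9 CPM scaled). Il2ra ran narrower unscaled (1598 to 1879 CPM, against 1530 to 2216 CPM scaled).

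Ratios of the counts of a pair of chains within a library do not depend on how libraries are scaled. Of 10 ratios, several of which share a gene, 8 gave p = 0.0286 in a two-sided exact permutation test over 35 assignments of the libraries, the smallest this test can give, with a Benjamini-Hochberg adjusted value of 0.0357. Counts of Il2ra were 15.6 to 36.9 times those of Il7r in FP libraries, against 3.48 to 3.64 times in PBS libraries, and the mean ratio was 7.34-fold higher after FP. The ratio of Il2ra to Il15ra was 3.98-fold higher. Relative to the shared gamma chain, Il2ra was 2.19-fold higher and Il2rb was 1.67-fold higher after FP. Il7r, Il15ra and Il21r fell relative to it, and Il4ra did not pass.

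Il7r counts were 0.169 to 0.355 of those of Il2rg in FP libraries, against 0.788 to 0.789 in PBS libraries, a difference of -1.74 on the log2 scale. The log2 ratio to Il2rg differed by -0.86 for Il15ra and by -0.52 for Il21r. For Il4ra the log2 ratio to Il2rg was 0.28 ± 0.08 in FP and 0.18 ± 0.05 in PBS libraries (SD, n = 4 and 3), the groups overlapped, and the exact permutation p was 0.171. The log2 ratio of Il2ra to Il2rb was 0.40 ± 0.15 in FP and 0.01 ± 0.12 in PBS libraries (SD, n = 4 and 3), without overlap, and missed the threshold with an exact permutation p of 0.0571 (adjusted 0.0635). Counts of Il4ra were 1.67 to 1.97 times those of its neighbour Il21r in FP libraries, against 1.10 to 1.21 times in PBS libraries.

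**Figure D3:**
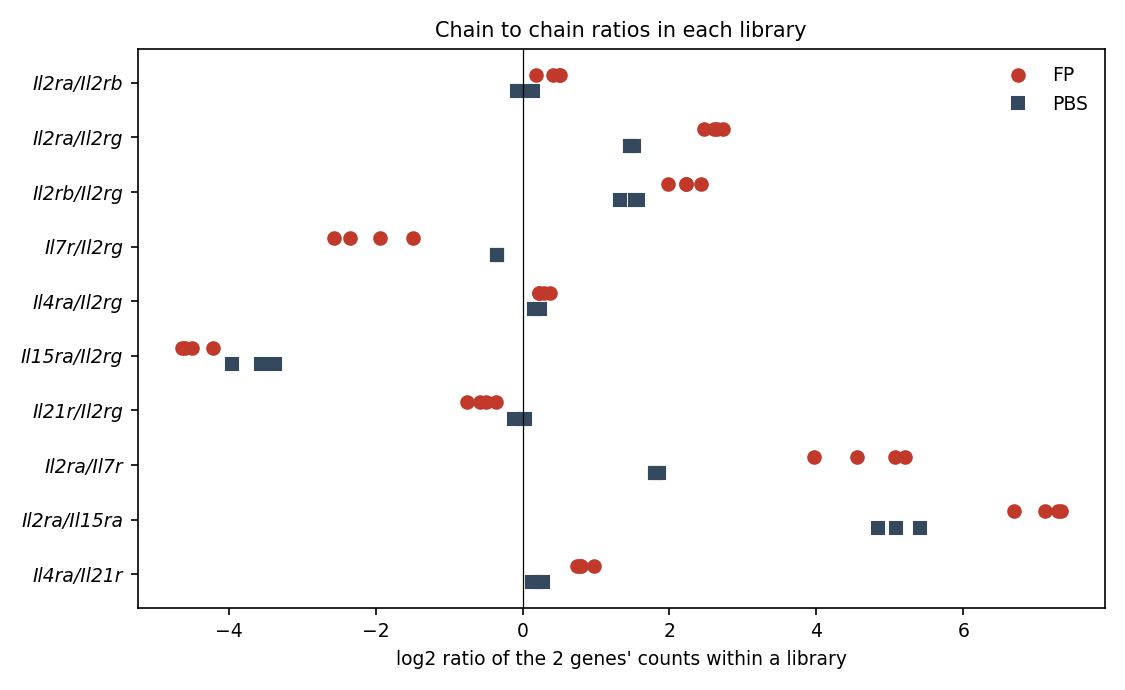
Log2 ratio of the counts of a pair of chains within each library (horizontal axis) for 10 pairs, with FP libraries as circles and PBS libraries as squares just below them. The groups are apart for every pair but Il4ra/Il2rg, and farthest apart for Il2ra/Il7r, with means of 4.70 in FP libraries and 1.82 in PBS libraries.

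To compare the levels of different chains, counts were divided by the exonic length of each gene and expressed as a share of the 7 chains within a library. Il2rb held 35.6% ± 2.39 of this per-length total in FP and 29.1% ± 1.91 in PBS libraries (SD, n = 4 and 3). Il2ra held 35.2% ± 2.07 after FP and 21.9% ± 0.35 after PBS, and Il2rg held 13.8% ± 0.82 after FP and 18.8% ± 0.58 after PBS. The IL-2 receptor chains thus took the first 3 places in both groups. Il21r held 6.79% ± 0.80 after FP and 13.3% ± 0.81 after PBS, and Il4ra held 6.64% ± 0.44 after FP and 8.46% ± 0.11 after PBS. Il7r held 1.74% ± 0.68 after FP and 7.58% ± 0.24 after PBS, and Il15ra held 0.33% ± 0.06 after FP and 0.83% ± 0.17 after PBS. The ranges of neighbours in this order did not overlap in PBS libraries. In FP libraries Il2rb exceeded Il2ra in 2 of 4 libraries and Il21r exceeded Il4ra in 3 of 4, so the places of these pairs are not settled.

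The order depended on the length used, in alternatives added after the values were seen. With the longest transcript as length, Il2ra came first in all 4 FP libraries, and Il7r and Il4ra changed places in PBS libraries with overlapping ranges. With shared exonic bases left out of the length but the counts unchanged, Il2rg came above Il2ra in PBS libraries, and Il4ra came above Il21r in FP libraries. Il2rg and Il4ra are the chains with shared bases, so only their lengths were shortened. Whether reads on those bases were counted was not given.

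**Figure D4:**
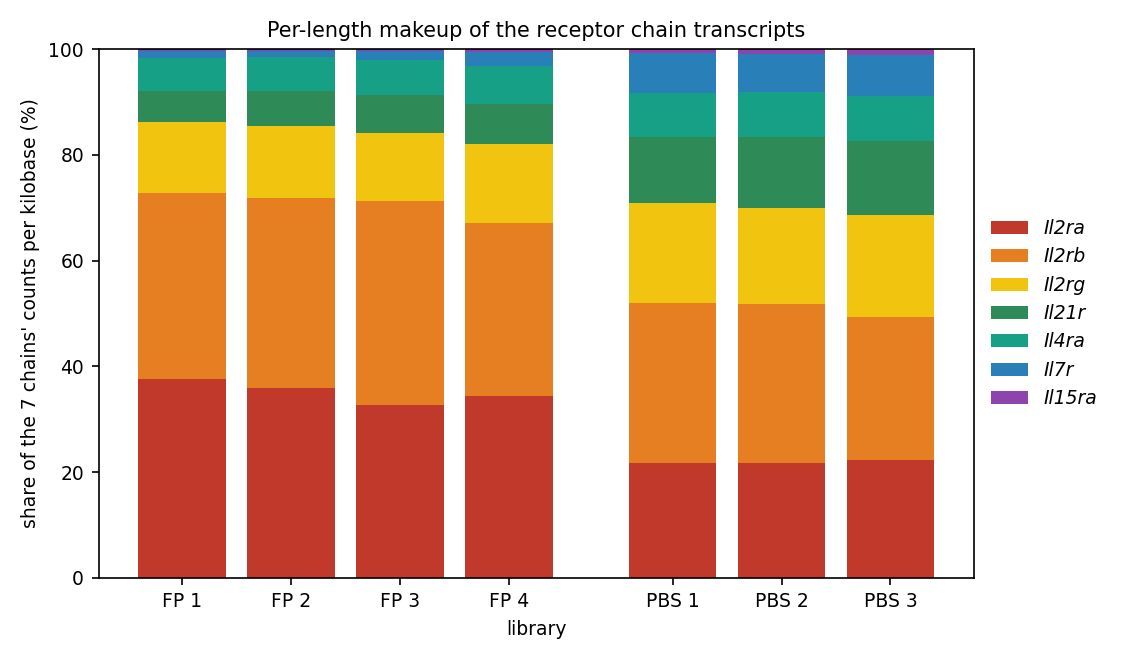
Share of each receptor chain in the counts per kilobase of the 7 chains (vertical axis, percent) in each FP library and each PBS library. The Il2ra segment is wider in FP libraries (mean 35.2%) than in PBS libraries (21.9%), and the Il7r segment is narrower (1.74% after FP and 7.58% after PBS).

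Of the 8 ligand genes of the family, 2 passed the filter. Il15 received 6 counts in all FP libraries and 103 in all PBS libraries, and was called lower (edgeR adjusted p = 0.000179), with each FP library under 3 counts. Il15 passed the filter on low counts through the PBS libraries alone, so it could be called only in the lower direction. Il4 had 38 counts in FP libraries and 32 in PBS libraries and was not called (edgeR adjusted p = 0.907). Il2 itself had 2 counts in FP libraries and 6 in PBS libraries and was not tested. Il7, Il9, Il13, Il21 and Tslp were also below the filter, with at most 17 counts in FP libraries and 12 in PBS libraries. Il15 moved with the macrophage and monocyte markers, whose most abundant genes, Vcam1 and Csf1r, measured 10.4 ± 8.27 and 13.1 ± 8.15 CPM in FP and 314 ± 130 and 201 ± 89.3 CPM in PBS libraries (SD, n = 4 and 3). Their part in the fall of Il15 was not tested.

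Of 4 further receptor chains that belong to the family or pair with one of the 7, Crlf2, the TSLP receptor chain that pairs with Il7r, was higher. It measured 38.6 ± 2.80 CPM in FP and 24.9 ± 1.82 CPM in PBS libraries (SD, n = 4 and 3), with a log2 fold change of 0.63 (edgeR adjusted p = 0.00148). Crlf2 and Il7r, which make up 1 receptor, thus differed in direction. Il13ra1, which pairs with Il4ra in the type II IL-4 receptor, was lower, with 19 counts in FP libraries and 129 in PBS libraries (edgeR adjusted p = 0.00210), in the direction of the macrophage and monocyte markers, and it too passed the filter through the PBS libraries alone. Il9r, the IL-9 receptor chain, measured 25.3 ± 7.05 CPM in FP and 16.9 ± 3.61 CPM in PBS libraries (SD, n = 4 and 3) and did not pass (log2 fold change 0.59, edgeR adjusted p = 0.0640). Its adjusted p was 0.0360 in the DESeq2 test, 0.0445 with no filter and 0.0263 without FP library 1. Il13ra2 had no counts.

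Among 6 kinases and STAT factors that carry the signal of these receptors, 1 was higher, 1 was lower and 4 missed the threshold. Over all genes tested, 21.0% were higher and 18.5% were lower. The list had a median log2 fold change of -0.09, against -0.05 over all genes tested. Both calls were small. Stat3, a target of the IL-21 receptor, had a log2 fold change of 0.30 (edgeR adjusted p = 0.0249). Stat5a, which IL-2 activates, had -0.29 (edgeR adjusted p = 0.0282). Each call was lost when certain libraries were left out. The adjusted p of Stat3 was 0.0515 to 0.121 without FP library 2 or 3 or PBS library 2 or 3, and that of Stat5a was 0.0544 to 0.105 without FP library 1 or 3 or any 1 of the PBS libraries. The call of Stat3 was also lost with upper-quartile factors (edgeR adjusted p = 0.378) and on library size alone (0.806), and that of Stat5a with no filter (0.0745). Jak3, the kinase bound to the gamma chain, measured 215 ± 29.8 CPM in FP and 176 ± 17.0 CPM in PBS libraries (SD, n = 4 and 3), and Jak1 measured 767 ± 74.6 CPM after FP and 777 ± 68.1 CPM after PBS. Neither passed, though Jak3 was called higher with no filter (edgeR adjusted p = 0.0430) and without FP library 1 (0.0264), and Jak1 was called lower on library size alone (0.0428). Stat5b and Stat6 had log2 fold changes of -0.15 and -0.24 and did not pass either. Both were called lower with upper-quartile factors (edgeR adjusted p 0.00633 for Stat5b and 0.00230 for Stat6) and on library size alone (0.0115 and 0.00483), and Stat6 also without FP library 2 (0.0278).

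Of 6 feedback inhibitors of cytokine receptor signalling, 5 were higher, against 21.0% of all genes tested, and 1 was not called. Their median log2 fold change was 1.21, against -0.05 over all genes tested. Socs2 rose most, to 192 ± 21.4 CPM in FP libraries, against 35.0 ± 1.21 CPM in PBS libraries (SD, n = 4 and 3), a log2 fold change of 2.46. Socs1, an inhibitor of JAK kinases, rose to 140 ± 10.9 CPM after FP, against 53.2 ± 5.43 CPM after PBS (log2 fold change 1.40). Socs3 had a log2 fold change of 1.37. Cish, a STAT5 target that restrains IL-2 signalling, had 1.05, with 317 ± 28.2 CPM after FP and 152 ± 10.7 CPM after PBS. The phosphatase gene Ptpn2 had a log2 fold change of 0.44 (edgeR adjusted p = 0.0347), and its adjusted p was 0.0535 to 0.118 without FP library 1 or 2 or PBS library 2 or 3, 0.157 with upper-quartile factors and 0.277 on library size alone. Ptpn6, another phosphatase gene, had -0.11 and did not pass, but was called lower with upper-quartile factors (edgeR adjusted p = 0.0152) and on library size alone (0.0194).

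Of 8 transcription factors known to act on receptor chain genes, 2 were higher, 3 were lower and 3 missed the threshold. Over all genes tested, 21.0% were higher and 18.5% were lower. The list had a median log2 fold change of 0.08, against -0.05 over all genes tested. Among the 7 genes that reached the minimum of the filter in at least 3 libraries of each group, 2 were higher and 2 were lower. Their median was 0.11. Tbx21 and Eomes, T-box factors that drive Il2rb in T and NK cells, moved apart. Tbx21 measured 12.7 ± 1.99 CPM in FP and 5.80 ± 0.702 CPM in PBS libraries (SD, n = 4 and 3), a log2 fold change of 1.14 (edgeR adjusted p = 0.000917). Eomes measured 0.878 ± 0.451 CPM after FP and 3.88 ± 0.508 CPM after PBS, a log2 fold change of -2.12 (edgeR adjusted p = 0.000981), and passed the filter through the PBS libraries. The factors known to act on Il7r had small fold changes. Foxo1, an activator of Il7r, had a log2 fold change of -0.26 (edgeR adjusted p = 0.0387), and its adjusted p was 0.0512 to 0.180 whichever of the 7 libraries was left out, 0.0587 with the size factors of DESeq2 and 0.0976 with no filter. Gfi1, a repressor of Il7r, had -0.39 (edgeR adjusted p = 0.0268), and its adjusted p was 0.0599 without PBS library 1, 0.146 without PBS library 3 and 0.0582 with no filter. Gabpa, an ETS factor that activates Il7r, had 0.29 (edgeR adjusted p = 0.0222), and its adjusted p was 0.0754 without PBS library 2, 0.0899 without PBS library 3, 0.389 with upper-quartile factors, and 0.884 on library size alone. Foxp3, Ets1 and Runx1 had log2 fold changes of 0.14, 0.05 and 0.11 and did not pass, and each turned negative with upper-quartile factors or library size alone.

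Other class I and class II cytokine receptor chains were set beside the 7. Of 24 listed, 18 were tested, of which 4 were higher, 11 were lower and 3 missed the threshold, against 21.0% higher and 18.5% lower over all genes tested. The list had a median log2 fold change of -0.59. The filter on low counts sets part of this count and median, since 5 of the 11 lower genes (Il23r, Epor, Csf2rb, Csf2rb2 and Lifr) passed it through the PBS libraries. Among the 13 genes that reached its minimum in at least 3 libraries of each group, 4 were higher, 6 were lower and 3 missed the threshold, with a median log2 fold change of -0.06. Ifngr1, a chain of the interferon gamma receptor, measured 386 ± 22.7 CPM in FP and 164 ± 13.8 CPM in PBS libraries (SD, n = 4 and 3), a log2 fold change of 1.24. Its partner Ifngr2 had a log2 fold change of -0.73. Il10ra, the IL-10 receptor chain, had 0.77, and Il12rb2 had 0.98 at 212 counts in FP libraries and 86 in PBS libraries, with an adjusted p of 0.0157 that was 0.0785 without PBS library 2 and 0.0597 on library size alone. The IL-6 receptor chain Il6ra had -0.68. Epor, the erythropoietin receptor, had 12 counts in FP libraries and 93 in PBS libraries and was called lower. Of the 11 lower genes, 5 had 32 counts or fewer in all FP libraries, in the direction of the macrophage and monocyte markers, whose part was not tested.

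**Figure D5:**
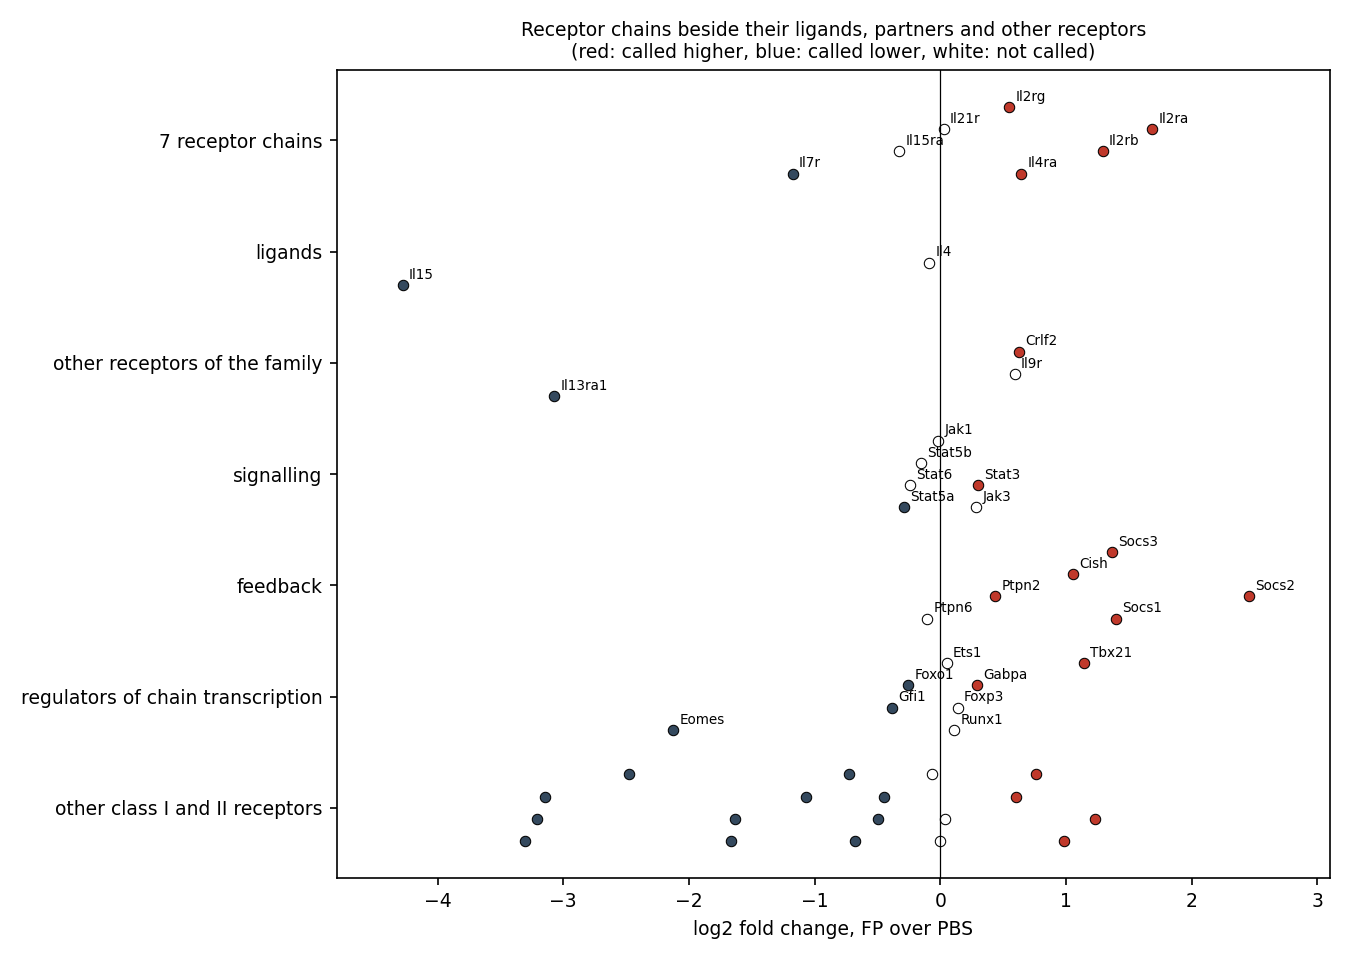
Log2 fold change, FP over PBS (horizontal axis), of each tested gene among the 7 receptor chains, their ligands, other receptors of the family, signalling genes, feedback inhibitors, regulators of chain transcription, and other class I and II receptors, red where called higher, blue where called lower and white where not called. The feedback genes lie mostly to the right, up to 2.46 for Socs2, and 11 of 18 other receptors lie to the left and were called lower.

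The genes whose values over the 7 libraries were most like those of each chain were found by the root mean square (RMS) difference of centred log2 CPM profiles among 8533 genes with a mean of at least 10 CPM. For Il2ra these were Actg1, encoding a cytoplasmic actin, and Glipr2, with RMS differences of 0.0515 and 0.0516 on the log2 scale. For Il2rb they were Ap2s1, encoding a clathrin adaptor subunit, at 0.0415, and Sae1, encoding a SUMO-activating enzyme subunit, at 0.0641. Il2rg was most like Caprin1 (0.0292) and Nab1 (0.0310), and Il4ra was most like Aes (0.0321) and Ube2n (0.0340). The nearest genes to Il7r were further off than those of the other chains, with St8sia1, a ganglioside sialyltransferase gene, at 0.125 and Dstyk at 0.128. Il15ra was most like Necap1 (0.0534) and Prepl (0.0715), and Il21r was most like Vrk3 (0.0349) and Stk10 (0.0365).

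Markers of other spleen cells were low, beside those of macrophages in PBS libraries. Of 7 B cell markers tested, Cd79b was higher and Cd22 was lower, and neither call held without certain libraries. The adjusted p of Cd79b was 0.0573 to 0.110 without FP library 1 or 2 or PBS library 1 or 2, and it was 0.0679 with upper-quartile factors, 0.0925 on library size alone and 0.0522 in limma-voom. The adjusted p of Cd22 was 0.0611 to 0.169 without any 1 of FP libraries 1 to 3 and PBS libraries 1 to 3. Cd8a and Cd8b1, which mark CD8 T cells, measured 2.33 ± 0.650 and 8.40 ± 1.67 CPM in FP and 2.52 ± 0.400 and 6.81 ± 0.788 CPM in PBS libraries (SD, n = 4 and 3), and were not called. Of the 6 NK cell markers only Eomes passed the filter, Klrb1c had 11 counts in FP libraries and 45 in PBS libraries, and Ncr1 and Klre1 had 4 and 1 counts in FP libraries and none in PBS libraries. The dendritic cell markers tested, Zbtb46 and Itgax, were both lower, with 11.2 ± 2.36 and 1.27 ± 0.713 CPM in FP and 20.0 ± 2.29 and 5.84 ± 2.22 CPM in PBS libraries (SD, n = 4 and 3). Itgax passed the filter through the PBS libraries. Among dendritic cell markers not tested, Xcr1 had 32 counts in FP libraries and 19 in PBS libraries. Flt3 had 4 and 16, and Siglech had 5 and 36. Of the 5 neutrophil markers only Csf3r was tested, and it was lower, with 21 counts in FP libraries and 220 in PBS libraries. It passed the filter through the PBS libraries alone, so it could be called only in the lower direction. The 4 neutrophil markers not tested had few counts, and each had more in FP libraries. S100a9 had 18 counts in FP libraries and 2 in PBS libraries, and Ly6g had 13 and 0. S100a8 had 6 and 0, and Mpo had 2 and 1. The erythroid markers Hbb-bs and Alas2 were not called.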

How the data were processed

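The authors deposited a table of raw counts, not normalized, with 51138 genes and 7 libraries. Per the labels' protocols, libraries were made from 25 ng of total RNA with ribosomal RNA removed. Per the series' design text and the submitters' processing notes, reads were mapped to GRCm38 with STAR 2.5.0b and counted on GENCODE genes with featureCounts 1.5.0. Nothing in the sources used here gives the strand setting or the handling of multi-mapping reads. Symbols were found for 50376 identifiers, and exonic lengths, coordinates and overlaps were taken from a newer GENCODE release on that build.

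FP and PBS counts were set against each other in edgeR 4.0.16 under R 4.3.3 (filterByExpr, TMM factors, robust quasi-likelihood fit), with Benjamini-Hochberg adjustment over 15954 genes and a threshold of 0.05. Standard errors come from the quasi-likelihood F statistic. Ratios within a library were compared by exact permutation. The procedure was tested on simulated data, where it made 153 calls among 15540 genes. Of these calls 17 were false, a share above the threshold of 0.05. It found 16 of 48 genes simulated with a 1.5-fold difference and 32 of 49 at 2-fold. At 4-fold it found 42 of 46, and at 8-fold 46 of 46. Small differences were thus often missed in the simulation. Few of its genes were given a difference, while 39.5% of the genes tested were called in the real data. The shares found and the share of false calls therefore need not hold for the real comparison. Alternatives were the size factors and the test of DESeq2 1.42.0, upper-quartile factors, library size alone, limma-voom (limma 3.58.1), no filter, at least 1 CPM in 3 libraries, each library left out in turn, and a replicate block. A further signalling gene was left out of the lists and is not reported here. The floor of 3 counts covers counting error only. The 7 chains and the lists were chosen with earlier results of these data known. Named genes were the 7 chains, every gene of the 5 short pathway lists as used, the 3 genes with the smallest p in each direction among the other receptors called, the 2 most abundant genes of each marker list, and the 2 genes most like each chain; neighbouring and overlapping genes, and single marker counts, were named besides.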

Additional observations from a re-analysis of the deposited data

Results flagged for a closer look

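Each of 75 genes and chain ratios was checked for an FP library far from the other 3, by the gap to the nearest library as a share of the range, and 2 were flagged, where chance flags about 1 in 20 groups. For Ptpn6, a phosphatase gene of the feedback list, FP library 2 measured 155.301 CPM and the nearest other FP library 128.19 CPM, a gap of 0.861 of the range. For Gfi1, a repressor of Il7r, FP library 4 measured 20.3247 CPM and the nearest other FP library 23.3529 CPM, a gap of 0.883 of the range. These CPM are TMM-scaled. FP libraries 2 and 4, with total counts of 13283833 and 13429878, had 1749 and 1770 counts of Ptpn6 and 263 and 285 of Gfi1. Without TMM scaling, FP library 2 was thus not apart for Ptpn6, and FP library 4 was not the lowest for Gfi1. None of the 7 receptor chains was flagged.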

How the results depend on the processing

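The log2 fold changes of the 5 called chains kept their direction and their side of the threshold under all 15 alternatives, from 1.40 to 1.79 for Il2ra, 1.01 to 1.42 for Il2rb, 0.27 to 0.62 for Il2rg, 0.37 to 0.71 for Il4ra and -1.41 to -1.08 for Il7r. Scaling by upper-quartile factors (UQ) or by library size only (LS) moved the median of all genes from -0.05 to -0.25 and -0.31. Under these 2 scalings Il15ra was called lower (-0.53 and -0.59), which makes 2 chains lower, and Il21r had -0.18 and -0.24. Genes called lower numbered 4823 and 5046 and, under LS, genes called higher numbered 2023. Without 1 library, Il21r ran from -0.023 to 0.084, all calls from 4088 (without PBS library 3) to 7277, and lower calls from 1774 (without PBS library 3; 1869 without PBS library 2) to 3389. Whether the replicate numbers pair the libraries was not settled. Deviations of same-numbered libraries correlated at 0.267, 0.048 and 0.131. FP libraries 1 and 3 correlated best with the PBS library of the same number. FP library 2 correlated best with PBS library 1 (0.277), and PBS library 3 with FP library 4 (0.442). With the replicate block, 7870 genes were called and Il2ra had 1.78, Il7r -1.34, Il15ra -0.35 and Il21r 0.06. PBS has no replicate 4, so FP library 4 takes up a block of its own and adds nothing to these fold changes. With FP library 4 left out and no block, they were 1.79, -1.33, -0.36 and 0.07. The block also ended the call of Foxo1 (-0.24, adjusted p 0.0698) and gave one of Stat6 (-0.24, adjusted p 0.0484).

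Counts in short lists moved with the setting. Called signalling genes numbered 0 higher and 3 lower under UQ, 0 higher and 4 lower under LS, 2 higher and 0 lower with no filter, and 1 higher and 2 lower with the block, and ran from 0 to 2 in each direction without 1 library. Under UQ and LS, 1 feedback gene was lower and 1 regulator was higher. No filter left 1 regulator lower, and regulators ran from 1 to 2 in each direction without 1 library. Other receptors of the family called higher numbered 2 in the DESeq2 test and with no filter, and 1 to 2 without 1 library. LS left 2 higher class I and II receptors, 2 Treg markers and 4 B cell markers. Called B cell markers numbered 1 with limma-voom, 4 with the block and 0 to 3 without 1 library. No filter called 3 NK and 2 neutrophil markers, the block called 1 erythroid marker, and NK markers ran from 1 to 2 without 1 library. Signs turned for genes not called: under UQ and LS, Foxp3 had -0.068 and -0.13, Ets1 -0.15 and -0.22, Runx1 -0.090 and -0.15, Cd3e -0.096 and -0.16, Vrk3 -0.15 and -0.21, and Stk10 -0.19 and -0.26. Jak1 had 0.0032 with no filter and 0.023 with the block, where Cd8a had 0.030. Without 1 library, Cd8a ran from -0.28 to 0.038, Ets1 from -0.013 to 0.17, Il4 from -0.45 to 0.19, Jak1 from -0.084 to 0.081, Stk10 from -0.035 to 0.069 and Vrk3 from -0.012 to 0.11. The cause was not tested. The 10 ratios kept their direction under 9 alternatives each. Depth limits the ligand genes, 6 of 8 of which had too few counts to be tested.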
